A study of Mus musculus with 4 samples.

Results

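The muscle contractile and myogenic genes are the subunits of the actin and myosin filaments, the proteins that regulate and anchor them, the calcium release channels and the transcription factors of muscle. They were chosen by symbol: 58 of the 16039 genes named on the array matched the name patterns of myosin heavy and light chains, troponins, tropomyosins, alpha actinins, muscle actins, calponins, transgelins, myozenins, myosin binding proteins C, ryanodine receptors, titin, nebulin, desmin, muscle creatine kinase and the MyoD family. Expression was measured in mouse dental follicle (DF), the mesenchyme that wraps the tooth germ, and dental papilla (P), the mesenchyme that the germ encloses, at E17 and PN2, stage names taken from the labels. The 4 groups are DF E17, P E17, DF PN2 and P PN2; strain, sex and the number of animals behind each are not given in the sources used here. Each tissue and stage is 1 signal column, repeated without a difference in every deposited file that holds it, so there is no replicate and no test. P E17 was read from the array of DF E17 with P E17, because the array titled P PN2-P E17 carries a second column headed DF E17 that is identical to DF E17. The labels also mention a whole embryo, stem cell culture and, on 1 array, DF PN3; the sample titles were followed. Of 8 follicle genes, 7 were higher past 2-fold in DF at E17 and 7 at PN2. Of 9 papilla and odontoblast genes, 8 were higher in P at E17 and 8 at PN2. Both lists were chosen with earlier results of these data known, so they are no independent check of the tissue labels.

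In striated muscle, thick filaments of myosin pull on thin filaments of actin, and troponin and tropomyosin on the thin filament make this depend on calcium released through ryanodine receptors. Smooth muscle has no troponin, and there calponin and transgelin bind the actin filament and phosphorylation of the myosin light chain starts contraction. Cells that are not muscle use other members of the same families in stress fibres and cell division, and pericytes and activated fibroblasts also express the smooth muscle actin gene. Many of these genes are driven by serum response factor (SRF), which binds a short element called the CArG box, and the skeletal set is switched on by the MyoD family of transcription factors.

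Of the 58 genes, 32 are components of the skeletal and cardiac sarcomere, 6 belong to smooth muscle, 15 are non-muscle or broadly expressed members, 3 are ryanodine receptors and 2 are myogenic regulators. Values are signal intensities, quantile normalised across all 4 columns, and a gene's value is the log2 mean of its probes; 25 members have several probes and 33 have 1. A member was compared when its highest signal reached 100, which 50 did, and was called higher or lower where the log2 ratio passed 1 in size, the 2-fold limit that the series design names. At least 1 of the 4 comparisons passed that limit in 23 of the 50 members, against 39.6% of all 14238 genes compared. How far probes of 1 gene differ is the only measure of error: the SD between them on the log2 ratio was 0.58 for DF over P at E17, 0.77 for DF over P at PN2, 0.47 for DF from E17 to PN2 and 0.65 for P from E17 to PN2. It covers no variation between animals. Because each signal is taken over all cells of a tissue sample, fewer cells of a type and less RNA per cell cannot be told apart.

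**Figure D1:**
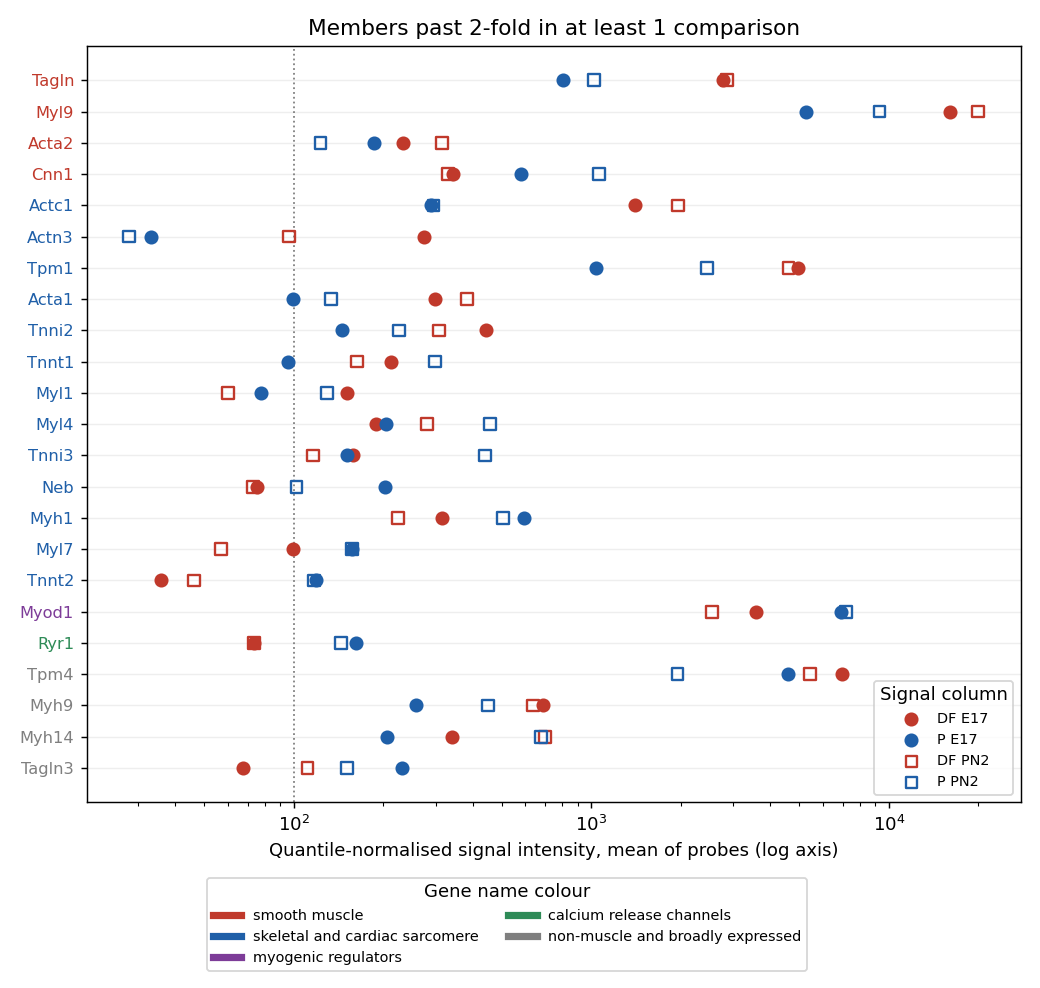
Quantile-normalised signal intensity (horizontal log axis, mean of a gene's probes) of the 23 members past 2-fold in at least 1 comparison, in the 4 signal columns; circles are E17, open squares PN2, red the follicle and blue the papilla, and the dotted line marks a signal of 100. In Tagln, Myl9, Actc1, Acta1 and Actn3 both follicle symbols lie to the right of both papilla symbols, and in Tnnt2 and Myod1 to their left.

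Of the smooth muscle genes, 5 of 6 had more signal in DF than in P at both stages, and Cnn1 had less. Past 2-fold, 2 were higher and 0 lower in DF at E17 (median log2 ratio 0.72), and 3 were higher and 1 lower at PN2 (median 0.94). Among all genes compared, 10.5% were higher and 10.1% lower at E17, and 12.8% were higher and 13.4% lower at PN2, and the median over them was -0.07 at either stage. These shares also stand beside the counts between tissues of the groups and lists below. Myl9, the regulatory light chain of smooth muscle and non-muscle myosin, had signals of 16041 in DF against 5256 in P at E17 and 19951 against 9306 at PN2. Both follicle columns lay above both papilla columns, with log2 ratios of 1.61 at E17 and 1.10 at PN2. Transgelin (Tagln), an actin-binding protein of smooth muscle, had signals of 2767 in DF against 805 in P at E17 and 2866 against 1019.7 at PN2, and log2 ratios of 1.78 and 1.49. Its 2 probes put DF above P at both stages but by unequal amounts, 0.68 and 2.88 at E17 and 0.71 and 2.27 at PN2, and the probe that was brighter on average over the columns did not reach 2-fold at either.

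Alpha smooth muscle actin (Acta2) was the member whose probes differed most at E17. One probe had signals of 3162 in DF against 517 in P at E17 and 4114 against 534 at PN2, which is a log2 ratio of DF over P of 2.61 at E17 and 2.95 at PN2. A second probe of the same transcript had 199 in DF against 162 in P at E17 and 149 against 102 at PN2, with ratios of 0.30 and 0.55. The third probe, listed under a cDNA clone record, had 20.1 in DF against 77.4 in P at E17 and 50.8 against 34.2 at PN2, with ratios of -1.94 and 0.57. Its signals in DF E17 and P PN2 were under 37.9, the level that 5% of normalised signals lie below, and with signals raised to that level its ratios were -1.03 and 0.42. The mean of all probes was 0.32 ± 2.28 at E17 and 1.35 ± 1.38 at PN2 (SD, 3 probes), and 0.63 and 1.31 with low signals raised. All probes lay on the follicle side at PN2 and 2 of 3 did at E17, and the median of the probes was under 2-fold at both stages.

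The other smooth muscle members divided. Gamma enteric actin (Actg2) had 4446 in DF against 3162 in P at E17 and 4248 against 2458 at PN2, and smooth muscle myosin heavy chain (Myh11) had 344 in DF against 179 in P at E17 and 254 against 148 at PN2; DF was above P at both stages without reaching 2-fold, with log2 ratios of 0.49 and 0.79 for Actg2 and 0.94 and 0.78 for Myh11. Calponin 1 (Cnn1), which in smooth muscle restrains the myosin motor on actin, went the other way. Its signals were 342 in DF against 581 in P at E17 and 331 against 1061 at PN2, so that both papilla columns were above both follicle columns, by a log2 ratio of -0.77 at E17 and -1.68 at PN2. From E17 to PN2 none of the 6 passed 2-fold in either tissue, and the ratios ran from -0.44 to 0.43 in DF and from -0.60 to 0.87 in P.

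Markers of perivascular cells were set beside these genes, from a list of smooth muscle and pericyte genes that holds none of the members. Its summed signal over 19 genes was 22079 in DF against 10586 in P at E17 and 19228 against 9390.1 at PN2. The median signal was 456 in DF against 218 in P at E17, but 203 against 351 at PN2. Csrp1 and Mcam were the brightest in DF PN2, at 5064 against 843 in P PN2 and 4942 against 1871. At E17, 7 of 17 genes compared were higher and 1 lower in DF (median log2 ratio 0.94). At PN2, 4 were higher and 4 lower (median log2 ratio 0.60). The highest ratios at PN2 were those of Csrp1 (2.59), Pdgfrb (2.38) and Mcam (1.40). The lowest were those of Kcnj8 (-2.17), Ppp1r14a (-1.88) and Synpo2 (-1.30). The endothelial list of 5 genes summed to 2434 in DF against 1751 in P at E17 and 1848 against 992 at PN2, with 2 higher in DF at E17 and 3 at PN2. Deposited signals start at 13.3, so no gene could be at 0. Of the smooth muscle and pericyte list, 2 genes were under 100 in DF E17 and 4 in each other column. Myocd, the cofactor that drives the smooth muscle program, stayed under 100 in all 4 columns. Markers of other cell types were also higher in DF. All 4 leukocyte genes were so at both stages, with median log2 ratios of 3.32 and 3.16. Their summed signal was 12639 in DF against 1004 in P at E17 and 13339 against 1669 at PN2. All 3 Schwann cell genes were so too, with medians of 3.83 and 4.69. They summed to 3357 in DF against 240.3 in P at E17 and 6536 against 259.5 at PN2. In both P columns all 3 Schwann cell genes and 2 of the 4 leukocyte genes were under 100. The part of vessel-associated cells, leukocytes and Schwann cells in the follicle ratios of the members was not tested.

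Promoters are shown for the 2 smooth muscle and 2 sarcomere members with the largest ratios among those that the RefSeq table used here (GRCm38.p6) lists; Tagln and Actn3, with larger ratios, are not shown. Each runs from 250 bases before to 50 after the annotated start, 5′ to 3′ on the gene's strand. A CArG box was searched on both strands as 10 bases, a pair of C, then 6 bases that are each A or T, then a pair of G, and matches are in capitals.
Myl9 (chr2:156775214-156775513, plus strand): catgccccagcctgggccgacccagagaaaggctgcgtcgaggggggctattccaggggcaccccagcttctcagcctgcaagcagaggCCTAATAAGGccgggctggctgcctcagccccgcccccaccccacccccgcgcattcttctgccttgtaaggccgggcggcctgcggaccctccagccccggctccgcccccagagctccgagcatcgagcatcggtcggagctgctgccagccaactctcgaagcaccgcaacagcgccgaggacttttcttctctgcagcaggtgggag
Actc1 (chr2:114052826-114053125, minus strand): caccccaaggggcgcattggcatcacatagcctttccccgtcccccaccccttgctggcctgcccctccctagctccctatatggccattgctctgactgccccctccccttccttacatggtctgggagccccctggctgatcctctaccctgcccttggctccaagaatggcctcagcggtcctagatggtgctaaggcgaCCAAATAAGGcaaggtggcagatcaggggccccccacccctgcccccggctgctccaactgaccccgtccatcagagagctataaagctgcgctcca
Cnn1 (chr9:22099003-22099302, plus strand): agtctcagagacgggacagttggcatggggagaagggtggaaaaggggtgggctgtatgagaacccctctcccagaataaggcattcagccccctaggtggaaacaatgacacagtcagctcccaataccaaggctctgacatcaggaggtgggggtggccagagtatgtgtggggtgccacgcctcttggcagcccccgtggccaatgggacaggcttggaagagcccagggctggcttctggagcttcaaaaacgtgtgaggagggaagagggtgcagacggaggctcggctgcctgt
Tpm1 (chr9:67049164-67049463, minus strand): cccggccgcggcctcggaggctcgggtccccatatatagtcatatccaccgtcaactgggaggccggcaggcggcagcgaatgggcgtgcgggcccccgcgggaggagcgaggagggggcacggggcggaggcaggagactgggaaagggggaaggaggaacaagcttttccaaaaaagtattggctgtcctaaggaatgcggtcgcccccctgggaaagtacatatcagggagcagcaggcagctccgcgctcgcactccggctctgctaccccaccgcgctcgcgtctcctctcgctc
The windows of Myl9 and Actc1, both on the follicle side, hold 1 match each, starting 161 and 47 bases before the annotated start. The windows of Cnn1 and Tpm1 hold none by this strict spelling, and neither does that of Tagln3, the member with the largest ratio in the non-muscle group. Promoters were listed for 47 of the 58 members, and 8 of their 53 promoters held a match (15.1%), against 535 of all 32851 promoters (1.63%). These 8 belong to Acta1, Actc1, Cnn2, Myh4, Myl3, Myl6, Myl7 and Myl9, of which Acta1, Actc1 and Myl9 were higher past 2-fold in DF at both stages, Myl7 was lower at PN2 and the other 4 passed 2-fold between tissues at neither stage.

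Among the 32 sarcomere genes, 25 reached a signal of 100. At E17, 6 of them were higher past 2-fold and 2 lower in DF (median log2 ratio 0.08), and at PN2 3 were higher and 5 lower (median -0.35). The higher genes at E17 were Acta1, Actc1, Actn3, Tpm1, Tnni2 and Tnnt1, and the lower were Neb and Tnnt2. At PN2 Acta1, Actc1 and Actn3 were higher, and Myh1, Myl1, Myl7, Tnni3 and Tnnt2 were lower.

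Cardiac alpha actin (Actc1), the actin of heart muscle and of skeletal muscle in the embryo, had 1405 in DF against 290.2 in P at E17 and 1952 against 295 at PN2. The follicle was 4.84-fold above the papilla at E17 and 6.62-fold at PN2, log2 ratios of 2.28 and 2.73, the largest of any member at PN2. Skeletal alpha actin (Acta1) stood at 299.6 in DF against 99.2 in P at E17 and 383 against 133 at PN2, with ratios of 1.59 and 1.52. In both genes the follicle columns lay above the papilla columns at each stage. Acta1 and Actc1 have 1 probe each. Muscle actins are near-identical in coding sequence, and whether these probes, or those of Acta2 and Actg2, also bound another actin's transcript was not tested.

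Alpha actinin 3 (Actn3), which anchors actin in the Z line of fast muscle fibres, had the largest ratio of any member at E17, 3.05. Its signals were 275 in DF against 33.1 in P at E17 and 96.5 against 28.0 at PN2. Both papilla signals were under 37.9, and with signals raised to that level the log2 ratio was 2.86 at E17 and 1.35 at PN2. The DF signal was lower at PN2 than at E17 by more than 2-fold (-1.51).

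Tropomyosin 1 (Tpm1), which covers the myosin-binding sites of actin and is also made in smooth muscle and non-muscle cells, had 4944 in DF against 1039 in P at E17 and 4597 against 2444 at PN2. Its 3 probes gave similar ratios at E17, from 1.98 to 2.45, with a mean of 2.25 ± 0.24 (SD, 3 probes), and 0.91 ± 0.38 at PN2. The papilla signal at PN2 was 2.35-fold that at E17 (1.23 ± 0.20), while the DF signal stood at -0.10 ± 0.12. Without normalisation the papilla value was 0.50, under 2-fold. The log2 ratio of DF over P was thus smaller at PN2 than at E17, a difference of -1.34. Tropomyosin 2 (Tpm2) stayed under 2-fold in all 4 comparisons, with 697 in DF against 774 in P at E17 and 875 against 1209 at PN2.

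The troponin subunits lay on both sides. Fast skeletal troponin I (Tnni2), the inhibitory subunit, had 442 in DF against 145 in P at E17 and 307 against 225 at PN2, higher in DF at E17 (1.61) and at 0.45 at PN2. Cardiac troponin T (Tnnt2), the subunit that binds tropomyosin, had 35.7 in DF against 119 in P at E17 and 46.2 against 117 at PN2, and was the only member lower past 2-fold in DF at both stages (-1.73 and -1.34). Its signal in DF E17 lay below the same level, and raising it there gave -1.65 at E17.

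Tnni3 and Tnnt1 had their highest signal in P PN2, and only Tnni3 passed 2-fold between tissues at that stage. Cardiac troponin I (Tnni3) had 159 in DF against 151 in P at E17 and 116 against 439 at PN2, so that P PN2 stood above the other 3 columns. Its 2 probes were on opposite sides at E17 (-0.82 and 0.97) and both on the papilla side at PN2 (-2.33 and -1.51). The papilla ratio of PN2 over E17 was 1.54, with the probes at 1.55 and 1.54, and 0.60 without normalisation, under 2-fold. Slow skeletal troponin T (Tnnt1) had 212 in DF against 95.4 in P at E17 and 163 against 298 at PN2; the log2 ratio of DF over P was 1.15 at E17 and -0.87 at PN2, and that of P PN2 over P E17 was 1.64. The E17 value of Tnnt1 was under 2-fold without normalisation and with median centring, and its papilla value was 0.60 without normalisation.

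The troponins Tnnc1, Tnnc2, Tnni1 and Tnnt3 passed 2-fold in none of the comparisons. Of these, the calcium-binding subunit Tnnc1 of slow and cardiac muscle had 297 in DF against 527 in P at E17 and 263 against 414 at PN2, with the papilla above the follicle at both stages (-0.83 and -0.65).

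The striated muscle myosin chains that passed the limit between tissues, Myh1, Myl7 and Myl1, did so at PN2 and on the papilla side. Myh1, an adult fast heavy chain, had 315 in DF against 593 in P at E17 and 225 against 504 at PN2, with log2 ratios of -0.91 at E17 and -1.17 at PN2, the latter under 2-fold without normalisation and in the deposited ratios. The atrial light chain Myl7 had 99.5 in DF against 157 in P at E17 and 57.0 against 157 at PN2, with -0.66 and -1.46. In both genes each papilla signal exceeded both follicle signals. Myl4, the light chain of atrium and of embryonic muscle, was highest in P PN2, with 189 in DF against 204 in P at E17 and 280.3 against 458 at PN2 and a papilla ratio of PN2 over E17 of 1.16 ± 0.32 (SD, 2 probes). The brighter of its probes stood at 0.94 and the mean without normalisation at 0.28, both under 2-fold. Myl1, the essential light chain of fast fibres, had 151 in DF against 77.9 in P at E17 and 60.3 against 129 at PN2; DF was above P at E17 (0.96) and below it at PN2 (-1.10), and the DF signal was lower at PN2 (-1.33). Myh4, Myh6, Myh8 and Myl3 passed 2-fold in no comparison by the mean of their probes. The 2 probes of Myl3 lay on opposite sides between tissues, at 1.49 and -0.97 at E17 and at 0.91 and -0.71 at PN2. Its means of 0.26 and 0.10 thus average unlike probes.

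Nebulin (Neb), the ruler of the thin filament, was measured by 4 probes and averaged 75.2 in DF against 203 in P at E17 and 73.0 against 102 at PN2. All 4 probes were lower in DF at E17, with a mean of -1.43 ± 0.62 (SD, 4 probes), and at PN2 the mean was -0.49 ± 0.61 and the brightest probe -1.01. The ryanodine receptor of skeletal muscle (Ryr1) was likewise higher in P, with 73.8 in DF against 162 in P at E17 and 73.6 against 144 at PN2. Its 3 probes gave -1.14 ± 0.57 at E17 and -0.97 ± 0.94 at PN2, all on the papilla side, but the brightest alone stood at -0.52 and -0.37. The cardiac receptor gene Ryr2 had mean ratios of -0.39 and -0.50, but 1 of its 2 probes was below 37.9 in all 4 columns. The other had 403 in DF against 772 in P at E17 and 287 against 751 at PN2, with ratios of -0.94 and -1.39, past 2-fold on the papilla side at PN2. Among the remaining sarcomere genes compared, Des, Mybpc3 and Myoz1 passed 2-fold nowhere, and the ratios of all 12 such genes ran from -0.83 to 0.41 at E17 and from -0.85 to 0.41 at PN2; desmin (Des), the intermediate filament of all muscle types, had 126 in DF against 95.4 in P at E17 and 134 against 116 at PN2.

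In another 8 members the mean of the probes stayed under 100 in every column: Ckm, Mybpc2, Myh3, Myh7, Myl2, Myoz3, Ryr3 and Ttn. Muscle creatine kinase (Ckm), embryonic myosin heavy chain (Myh3) and titin (Ttn, 5 probes) are genes of skeletal muscle fibres. Their means reached at most 90.5, 73.9 and 84.1. Single probes went higher. Different Ttn probes reached 159 in DF E17, 113 in P E17, 177 in P PN2 and 100.2 in P PN2, and only 1 Ttn probe stayed under 100 throughout. Of Ryr3, 1 probe was at 122 in P PN2. The highest means of Mybpc2, Myh7, Myl2, Myoz3 and Ryr3 lay between 42.0 and 99.5. No ratio of these genes was counted.

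The regulators of the skeletal program gave 2 different readings. Myod1, which commits cells to skeletal muscle, had signals of 3572 in DF against 6894 in P at E17 and 2552 against 7166 at PN2 from 1 probe. The papilla lay above the follicle at both stages, with log2 ratios of -0.95 at E17 and -1.49 at PN2. Myogenin (Myog), which in muscle precursors is activated by MyoD and drives their differentiation, stayed near the limit of 100, with 101 in DF against 84.7 in P at E17 and 109.6 against 104 at PN2, and its ratios were 0.25 and 0.08. Myod1 thus differed past 2-fold between tissues at PN2, and Myog at neither stage. Whether the Myod1 probe also bound another transcript was not tested.

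Skeletal muscle genes outside the members were read from a list of 48, of which 33 were on the array and 29 reached 100. At E17, 3 were higher and 4 lower past 2-fold in DF (median -0.13), and at PN2 3 were higher and 5 lower (median -0.16). Among all genes the shares were 10.5% and 10.1% at E17 and 12.8% and 13.4% at PN2. Their summed signal was 7733 in DF against 6196 in P at E17 and 7046 against 7512 at PN2, with no gene at 0. Mef2c alone had 2066 in DF against 529 in P within the E17 sums. The median signal of the list was lower in DF, at 110 against 125 in P at E17 and 115 against 147 at PN2. Dystrophin (Dmd), which links actin to the membrane, had the largest ratio of the genes compared at E17. Its signals were 459 in DF against 87.1 in P at E17 and 656 against 119 at PN2. The kinase of the neuromuscular junction (Musk) had 93.6 in DF against 55.7 in P at E17 and 177 against 27.1 at PN2 with a PN2 ratio of 2.71, or 2.23 with its P PN2 signal raised to 37.9; that of Dmd was 2.46. On the papilla side the acetylcholine receptor subunit Chrna1 had 93.3 in DF against 212 in P at E17 and 28.4 against 150.2 at PN2 (a PN2 ratio of -2.40, or -1.99 with its DF signal raised), and Xirp1, an actin-binding protein of the muscle attachment sites, had 402 in DF against 858 in P at E17 and 237 against 499 at PN2. The satellite cell factor Pax7, the precursor factor Pax3 and the fusion protein gene Mymk did not reach 100 in any column. The part of muscle tissue dissected along with either organ was not tested.

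**Figure D2:**
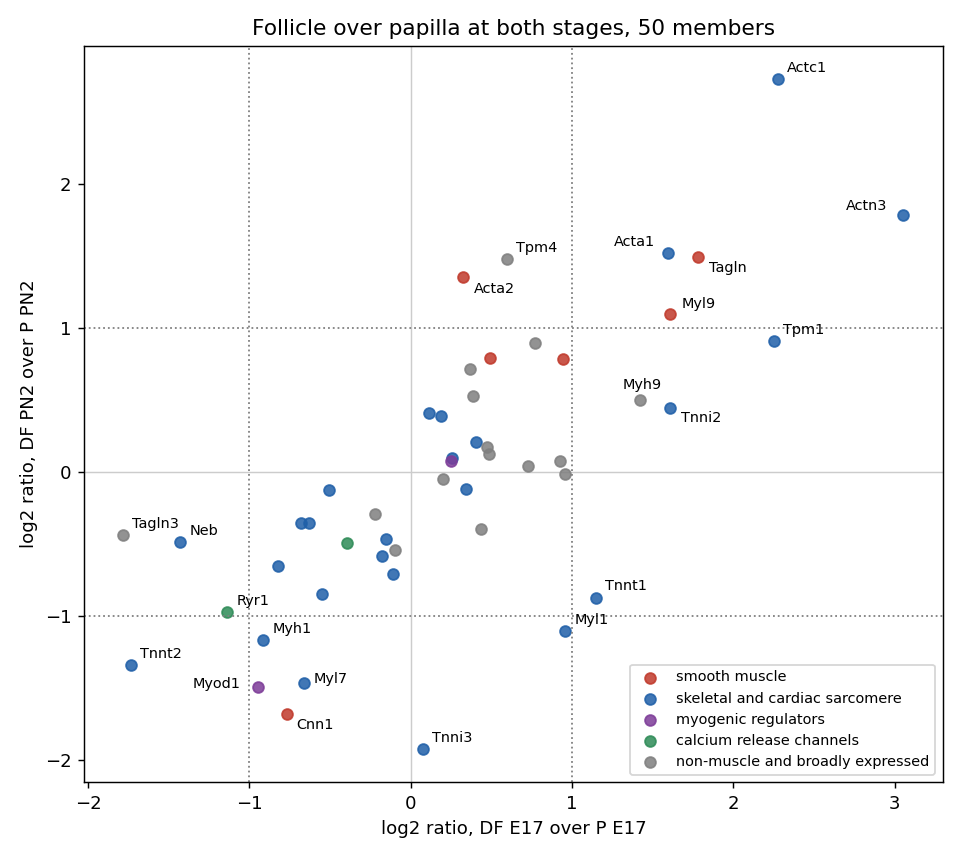
Log2 ratio of follicle over papilla at E17 (horizontal) and PN2 (vertical) for the 50 members compared, coloured by role; dotted lines mark 2-fold and members past it at either stage are named. Acta1, Actc1, Actn3, Myl9 and Tagln lie past 2-fold towards the follicle at both stages, and Tnnt2 towards the papilla.

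The non-muscle and broadly expressed members were all above 100 in at least 1 column. At E17 1 of 15 was higher and 1 lower in DF (median log2 ratio 0.47), and at PN2 1 was higher and 0 lower (median 0.08). Non-muscle myosin heavy chain IIA (Myh9), the motor of stress fibres, was the higher one at E17 (1.42). Its main transcript's probe had 4703 in DF against 2523 in P at E17 and 6901 against 2015 at PN2, with log2 ratios of 0.90 at E17 and 1.78 at PN2. The probe listed under a cDNA clone record had 101 in DF against 26.2 in P at E17 and 59.1 against 101 at PN2, with 1.95 and -0.77. Its P E17 signal was below 37.9; raised to that level it gave 1.41, and the mean of both probes at E17 was 1.16. The call at E17 thus rests on the dimmer probe, while the brighter one passed 2-fold at PN2, where the mean was 0.50 ± 1.80 (SD, 2 probes).

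Tropomyosin 4 (Tpm4), a tropomyosin of the non-muscle cytoskeleton, had 6937 in DF against 4589.9 in P at E17 and 5422 against 1947 at PN2. P PN2 was the lowest of the 4 columns: the log2 ratio of DF over P was 0.60 at E17 and 1.48 at PN2, and that of P PN2 over P E17 was -1.24 (-0.98 in the deposited ratios). Past 2-fold, Tpm1 was thus higher and Tpm4 lower in P PN2 than in P E17. Transgelin 3 (Tagln3), the neuronal member of the transgelin family, had 67.5 in DF against 232 in P at E17 and 111 against 151 at PN2 and was lower in DF at E17 by both probes (-1.78 ± 0.29, SD, 2 probes), with -0.44 ± 0.41 at PN2.

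Non-muscle myosin heavy chain IIC (Myh14), which is prominent in epithelia, was the only member higher past 2-fold at PN2 in both tissues, with 341 in DF against 207 in P at E17 and 699 against 679 at PN2. The ratio of PN2 over E17 was 1.03 ± 0.60 in DF and 1.72 ± 0.74 in P (SD, 2 probes), and neither reached 2-fold without normalisation. Non-muscle heavy chain IIB (Myh10), the light chains Myl6, Myl6b, Myl12a and Myl12b, the alpha actinins Actn1 and Actn4, the calponins Cnn2 and Cnn3, Tagln2 and Tpm3 passed 2-fold in none of the comparisons. Their ratios of DF over P ran from -0.22 to 0.95 at E17 and from -0.54 to 0.89 at PN2. The median of the probes put Myh10 past 2-fold in DF, at 1.54 and 1.23, where the mean was 0.77 and 0.89. Close relatives such as Myl12a and Myl12b may share probe signal, which was not tested. The light chain gene Myl6, which pairs with non-muscle and smooth muscle myosins, had 45318 in DF against 32688 in P at E17 and 47203 against 41924 at PN2, with ratios of 0.47 and 0.17.

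**Figure D3:**
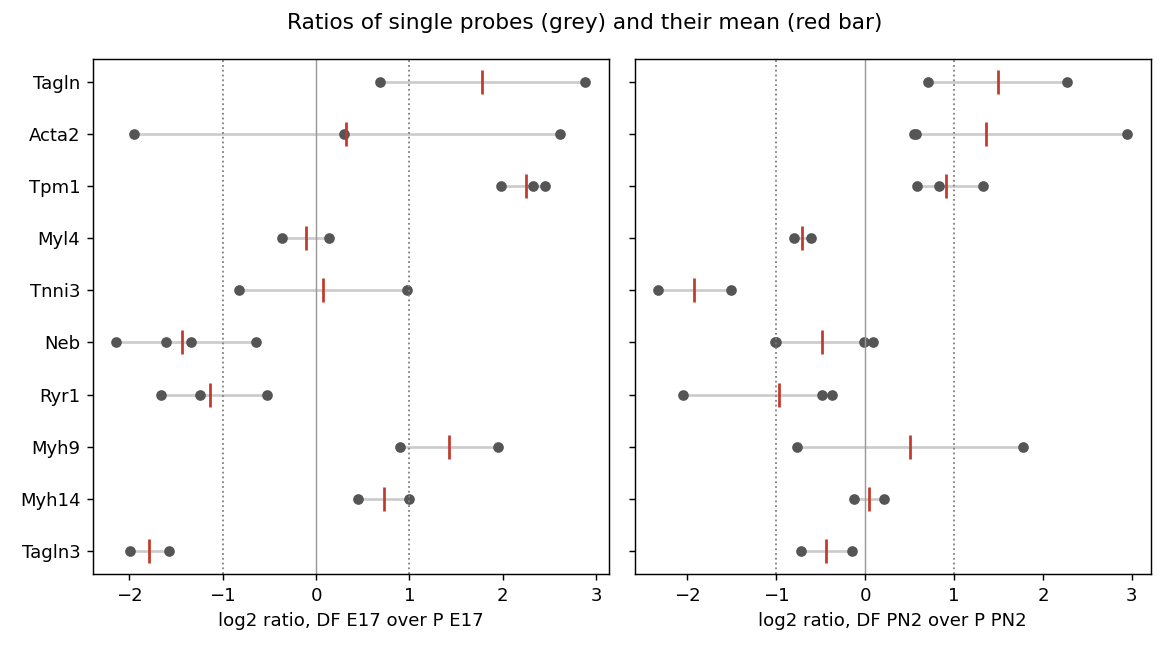
Log2 ratio of follicle over papilla for every probe (grey points) and their mean (red bar) at E17 and PN2, for the 10 members past 2-fold in some comparison that have several probes; dotted lines mark 2-fold. The probes of Tpm1 lie close together at E17, while those of Acta2 run from -1.94 (-1.03 with low signals raised to 37.9) to 2.61.

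Genes of stress fibres and known SRF targets outside the members were read beside these, from a list of 21 of which 17 were on the array and reached 100. At E17, 6 were higher and 0 lower past 2-fold in DF (median log2 ratio 0.56), and at PN2 6 were higher and 0 lower (median 0.72). Of all genes, 10.5% were higher and 10.1% lower at E17, and 12.8% and 13.4% at PN2. The LIM protein gene Fhl2 had 1012 in DF against 145 in P at E17 and 869 against 111 at PN2, with ratios of 2.80 and 2.97. Caldesmon (Cald1), which binds actin and tropomyosin in smooth muscle and non-muscle cells, had 9272 in DF against 3553 in P at E17 and 6854 against 3269 at PN2, and vinculin (Vcl), an anchor of actin at adhesions, had 1535 in DF against 771 in P at E17 and 1636 against 647 at PN2. In all 3 the follicle signals lay above the papilla signals at both stages. Of the list, only Fhl2 and Cald1 passed 2-fold at both. Ccn1 (1.76 at E17 and -0.26 at PN2) and Vim (1.16 and -0.19) were past 2-fold towards the follicle at E17 and on the papilla side at PN2. Srf itself had 786 in DF against 1016 in P at E17 and 719.7 against 753 at PN2, with ratios of -0.37 and -0.07.

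**Figure D4:**
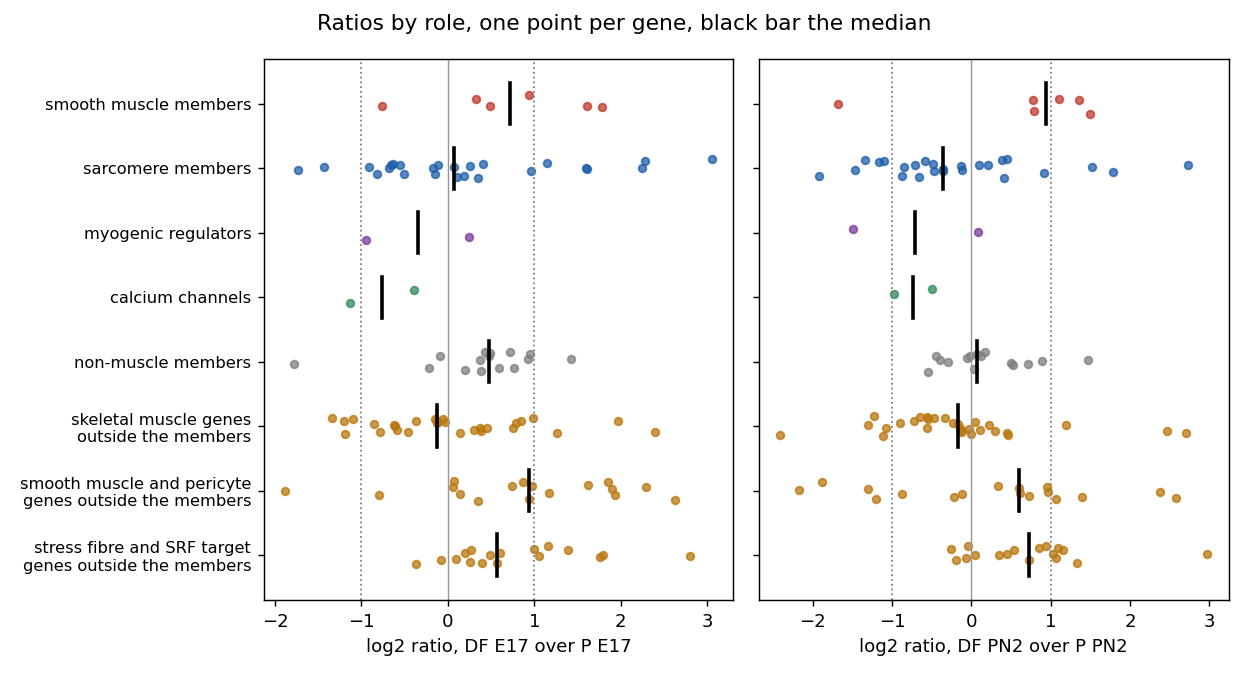
Log2 ratio of follicle over papilla at E17 and PN2 by role, with one point per gene that reached a signal of 100 and a black bar at the median; orange groups are lists outside the members and dotted lines mark 2-fold. The smooth muscle members have medians of 0.72 and 0.94 and the sarcomere members 0.08 and -0.35.

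Over all members, 9 were higher past 2-fold and 4 lower in DF at E17, with a median log2 ratio of 0.29, and without normalisation the split was 8 and 7. The split at PN2 was 7 higher and 7 lower (median -0.03), and without normalisation 12 and 7. The shares of higher members (18% and 14%) stood beside 10.5% and 12.8% of all genes, and those of lower members (8% and 14%) beside 10.1% and 13.4%. The tissue comparisons at E17 and PN2 use different columns: 5 members were higher in DF at both stages (Acta1, Actc1, Actn3, Myl9 and Tagln), 10% of the 50, where 6.05% of all genes were. They were 5 of the 9 higher members at E17 and 5 of the 7 at PN2 (55.6% and 71.4%), and among all genes the like shares were 57.7% and 47.1%. Tnnt2 alone was lower at both, 2% of members against 5.62% of all genes. It was 1 of the 4 lower members at E17 and 1 of the 7 at PN2 (25% and 14.3%), where the shares among all genes were 55.4% and 41.9%.

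The log2 ratio of DF over P was smaller at PN2 than at E17 by 1 or more in 6 of 50 members (12%), against 9.14% of all genes. They were Actn3 (-1.27), Myl1 (-2.06), Tnni2 (-1.16), Tnni3 (-2.00), Tnnt1 (-2.02) and Tpm1 (-1.34). All are of the sarcomere group, which holds 25 of the 50 members compared. Without normalisation the changes of Actn3 (-0.77), Tnni2 (-0.51) and Tpm1 (-0.70) were under 1 in size. The ratio was larger at PN2 by 1 or more in Acta2 (1.03) and Tagln3 (1.34), 4% of members against 8.12% of all genes. The Acta2 value depended on the clone-record probe with a signal below 37.9 in DF E17: it was 0.68 with low signals raised to that level, 0.25 by the median probe and 0.33 by the brightest. That of Tagln3 was 0.85 by its brightest probe. The SD of this change between single probes of a gene was 0.77. The values of Actn3, Myl1, Tnni2 and Tnnt1 lie within 3 such SDs. Those of Tnni3, Tagln3, Acta2 and Tpm1 are means of 2 or 3 probes, for which a single-probe SD is too wide a measure. That SD comes from genes with several probes and covers no variation between animals, and Actn3, Myl1, Tnni2 and Tnnt1 have 1 probe each. None of the 8 changes was tested.

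Between the stages, few members passed 2-fold in the follicle. Myh14 was higher and Actn3 and Myl1 were lower in DF PN2 than in DF E17, 2% and 4% of members where 3.83% and 4.06% of all genes were. In the papilla Myh14, Myl4, Tnni3, Tnnt1 and Tpm1 were higher and Tpm4 was lower at PN2, 10% and 2% of members against 6.55% and 5.09% of all genes. Median log2 ratios over the members were -0.05 in DF and 0.14 in P. These comparisons share their columns with the tissue comparisons and are not separate evidence for them. Without normalisation the splits were 0 higher and 4 lower in DF and 0 higher and 10 lower in P, where the median of all genes shifted to -0.23 and -0.80. In the deposited ratios the papilla had 7 higher and 0 lower.

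**Figure D5:**
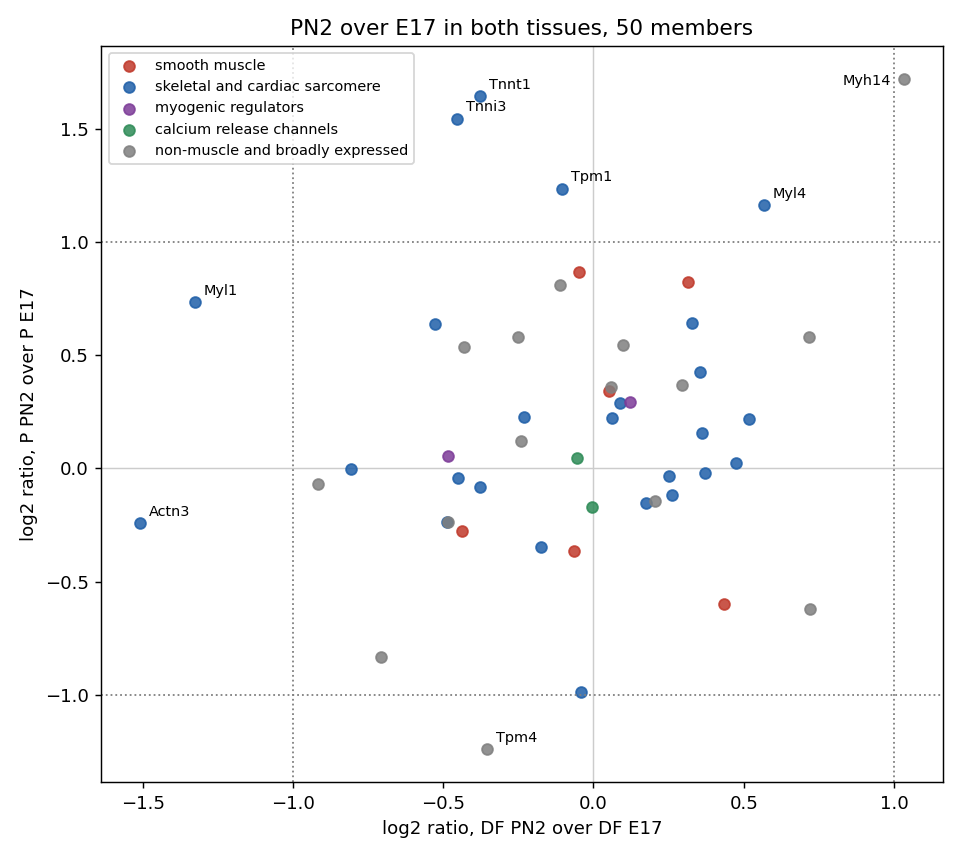
Log2 ratio of PN2 over E17 in the follicle (horizontal) and in the papilla (vertical) for the 50 members compared, coloured by role; dotted lines mark 2-fold. Myh14 lies past 2-fold in both tissues, Tnnt1, Tnni3, Tpm1 and Myl4 lie above the limit on the papilla axis, Tpm4 below it, and Actn3 and Myl1 below it on the follicle axis.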

How the data were processed

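Per the submitters' processing notes, scans were quantified in Agilent Feature Extraction 8.5.1.1. Per the file headers, the deposited values are linear signal intensities named by tissue and stage for 30146 probes, with background and dye steps not given in the sources used here. A deposited value table holds log10 ratios, which for 99.99% of probes or more differ from the signals' own log10 ratio by 1 offset for each array (within 0.001 on the log2 scale). One column, headed DF E17 in the file titled P PN2 with P E17, was not used; the deposited ratio of that array matches P PN2 over P E17.

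Probes were named from the platform table (25962 with 1 symbol, 4184 with none, 0 with several), and all 58 members matched RefSeq by gene number with 0 symbols changed. The log2 of the intensity, without a pseudocount, was quantile normalised across columns, and probes were averaged by gene; genes with a highest signal of 100 or more were compared (14238). The lowest deposited signals were 13.3 to 15.9 and the medians 204.7 to 352, and the number of arrays limits the precision. No test was possible, and the pipeline was tested on simulated data. The members and lists were chosen with earlier results of these data known. Members past 2-fold anywhere are named, with others by count, and up to 3 genes at either end of each outside list; Cald1, Vcl, Srf, Xirp1, Pax3, Pax7, Mymk, Myocd, Tnnc1, Tpm2, Des, Myl6, Kcnj8, Abcc9 and Rgs5 were chosen after their values were seen. Alternatives were no normalisation, median centring, the deposited ratios brought to log2, a floor at the 5th percentile, filters at 200 or none, and the median or brightest probe. Python 3.11.15 with numpy 2.4.6 and pandas 2.3.3 was used.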

Additional observations from a re-analysis of the deposited data

Results flagged for a closer look

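Myl1, the essential light chain of fast muscle fibres, had opposite signs under the same contrast, each larger than the SD between probes of a gene. DF over P was 0.96 at E17 and -1.10 at PN2, and PN2 over E17 was -1.33 in DF and 0.73 in P. Both pairs come from the same 4 signals and are not separate evidence. Of these, P E17 (77.9) and DF PN2 (60.3) were under 100. The highest was 151, so Myl1 was not compared under the filter at 200. Slow troponin T (Tnnt1) was at 1.15 in DF over P at E17 and at -0.87 at PN2. Both genes have 1 probe, so the SD between probes comes from other genes. These differences were not tested, since each tissue and stage is 1 hybridisation. No group has the 4 samples that a check for outlying samples needs.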

How the results depend on the processing

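None of the 36 calls of single members changed sign under any alternative that gave a value (30 of them with a highest signal of 200 or more, all 36 under the other 7). This was partly fixed in advance. The filters leave every ratio as it was, and a member with 1 probe has the same ratio under any choice of probe. The counts and medians over the members kept their side and size with signals raised to the 5th percentile and with the median of the probes. Without normalisation, 7 members were lower in DF E17 over P E17 (median -0.14), 12 higher in DF PN2 over P PN2 (median 0.26), 0 higher and 4 lower in DF PN2 over DF E17 (median -0.31) and 0 higher and 10 lower in P PN2 over P E17 (median -0.68). The median of all genes also moved there, to -0.32, 0.21, -0.23 and -0.80. Calls that fell under 2-fold without normalisation were Tnnt1 at E17, Myh1 at PN2 and Myh14 in DF between stages. In P between stages they were Myh14, Myl4, Tnni3, Tnnt1 and Tpm1. With median centring the E17 tissue median was 0.14. In the deposited ratios the median was 0.17 for the tissues at PN2 and 0.013 for DF between stages, and 0 members were lower in P between stages. With a highest signal of 200 or more, 2 members were lower at E17 (median 0.45), 4 at PN2 (median 0.089) and 1 in DF between stages, since fewer genes were compared. With no filter, 2 were higher and 4 lower in DF and 2 lower in P between stages. With the brightest probe 2 were lower in P between stages (median 0.0098), and Myh9, Ryr1 and Tagln lost their E17 call, Tagln its PN2 call and Myl4 its papilla call. Where no construction is named, the cause was not tested. Leaving out a replicate was not possible, and no paired analysis was possible because each tissue and stage is 1 hybridisation. Actn3 in the papilla, Tnnt2 in DF E17 and single probes of Acta2, Myh9, Neb, Ryr2 and Myh10 had signals below the 5th percentile, which limits their ratios.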

Other observations

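Kcnj8 and Abcc9, which encode the pore and the sulfonylurea receptor of the potassium channel of pericytes and smooth muscle, lay on opposite sides. Kcnj8 had signals of 456 in DF against 1682 in P at E17 and 259 against 1163 at PN2, with the papilla above the follicle at both stages by each of its 2 probes, from -2.10 to -1.67 at E17 and from -2.60 to -1.74 at PN2. Abcc9 had 708 in DF against 229.8 in P at E17 and 531 against 271 at PN2, with the follicle above the papilla by each of its 3 probes, from 1.23 to 1.87 at E17 and from 0.40 to 1.65 at PN2. The pericyte receptor gene Pdgfrb had 1477 in DF against 1401 in P at E17 and 1824 against 351 at PN2, so that P PN2 alone was low, and the pericyte gene Rgs5 had 837 in DF against 218 in P at E17 and 621 against 405 at PN2, with P E17 lowest. The transcription factor gene Mef2c, which acts in muscle and in other tissues, had 2066 in DF against 529 in P at E17 and 1764 against 1632 at PN2, with P E17 alone low.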
